A study of Ctenopharyngodon idella with 15 samples.

Results

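The gills of grass carp kept for 30 days at a salinity of 6‰ were compared with those kept at 3‰, in fish that showed no symptoms. The 6 fish, 3 at each salinity, were taken from the 15 uninfected fish of the series by their labels for salinity and health condition, and no measured value entered the choice. All fish were Ctenopharyngodon idella, 3 months old, and 1 gill RNA library was made from each fish. The labels write the salinities as 3% and 6% and give both groups as healthy. The study writes 3‰ and 6‰, made with commercial sea salt, and calls these fish 6‰-treated asymptomatic fish and 3‰-treated asymptomatic fish, a naming that is kept here and shortened to 6‰ fish and 3‰ fish. The other 9 fish, used here only for reference, were 3 untreated control fish at 0‰ and 3 symptomatic fish at each salinity. In both salinity groups other fish had lost scales or had ulcerated fins, so the asymptomatic fish are a selected subset of each group. In the study's histology the gill lamellae of 6‰ asymptomatic fish were normal. At 3‰ it reports lamellae stuck together and more plasma cells, in asymptomatic fish and above all in symptomatic fish. Fish called asymptomatic thus did not have gills that looked alike at both salinities. No source gives sex, tank or sequencing batch for a fish, and tank and salinity cannot be told apart.

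The gill is the surface through which a freshwater fish loses salts and gains water, and saltier water lowers that gradient. Its epithelium is sealed by tight junctions, whose claudin proteins set which ions can pass between cells. The gill is also an immune organ: mast cell-like granulocytes, cytotoxic lymphocytes, macrophages and antibody-secreting cells lie within and under the epithelium, beside sensory and neuroendocrine cells that respond to oxygen and touch. RNA of whole gills averages over these cells, so fewer cells of a type and less RNA per cell cannot be told apart in any value below.

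Expression was deposited by the authors as FPKM, that is fragments on a gene scaled to transcript length and to sequencing depth, for 40116 genes in every fish. FPKM summed to between 759044 and 779964 in the 6‰ fish and to between 764977 and 800868 in the 3‰ fish, and 28963 to 30047 genes were above 0 in each of the 6 fish. Over the tested genes the 6‰ fish correlated with each other at r = 0.964 to 0.966 (Pearson's r of log2(FPKM + 1) across genes, which are not independent). The 3‰ fish did so at 0.940 to 0.951, and 3‰ fish 2 correlated with the 6‰ fish at 0.958 to 0.960, above its values of 0.951 and 0.944 with its own group. The other 3‰ fish also had their highest value outside their group. For 3‰ fish 1 it was 0.966, with symptomatic fish 1 of 6‰, and for 3‰ fish 3 it was 0.958, with control fish 3. The median standard deviation of a gene between fish was 0.17 log2 units at 6‰ and 0.19 at 3‰, against 0.25 to 0.33 in the other 3 groups. Among all 105 pairs of the 15 fish the highest correlation, 0.986, joined symptomatic fish 1 of 6‰ to symptomatic fish 1 of 3‰. The next highest was 0.966, so results on symptomatic fish are also given without that pair.

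The 2 groups were compared on log2(FPKM + 1) in the 24511 genes that averaged 0.5 FPKM or more in these 6 fish. A gene is called higher or lower at a fold change of at least 1.5 (0.58 on the log2 scale) and an unadjusted p below 0.05 in limma. Differences are 6‰ minus 3‰ on that scale, which understates the change of genes with low FPKM, and are given ± SE. By this rule 1542 genes changed, or 6.29% of those tested, with 832 higher at 6‰ (3.39%) and 710 lower (2.90%). An unadjusted p below 0.05 alone was met by 3481 genes. After Benjamini-Hochberg adjustment 18 genes were left (0.0734%), 9 higher and 9 lower, so most of the values below are differences between 3 fish and 3 fish that do not withstand correction over all genes. Without 3‰ fish 2, the fish nearest to the other group, the same rule called 2297 genes, and 1267 of these were among the 1542. An exact permutation test over 3 and 3 fish cannot give a p below 0.1 for a single gene, since there are 10 splits, and none is reported.

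**Figure D1:**
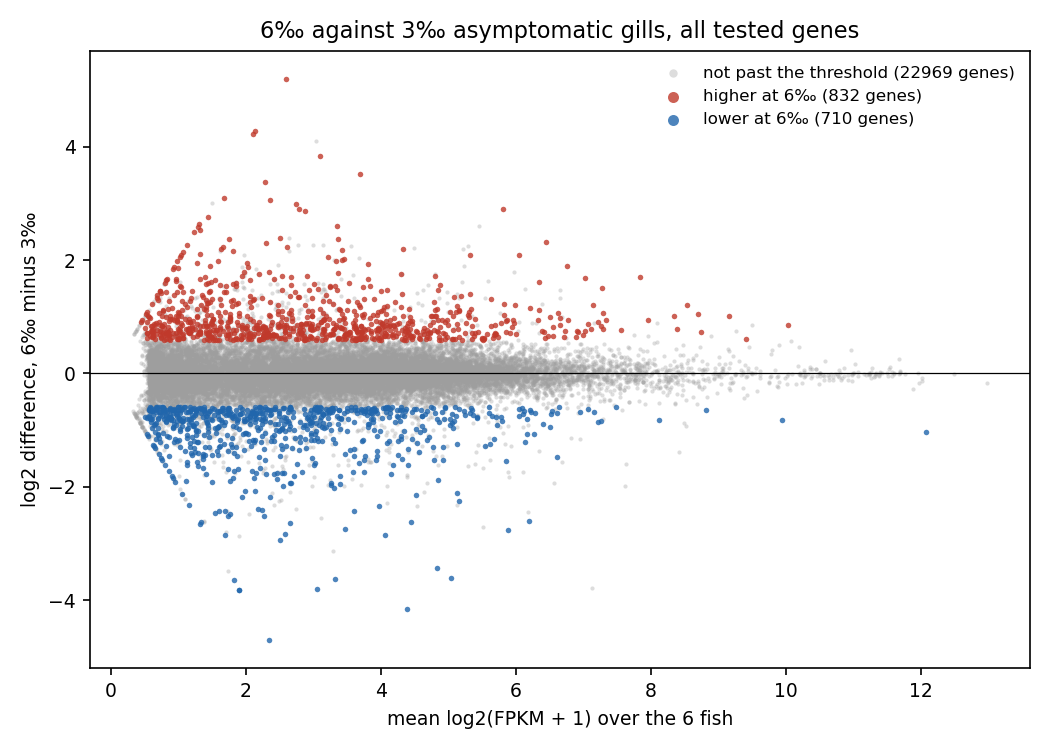
Log2 difference (6‰ minus 3‰, asymptomatic fish) against mean log2(FPKM + 1) over the 6 fish, for 24511 tested genes. Red points are the 832 genes called higher at 6‰ and blue points the 710 called lower, which lie on both sides of 0 at low and high expression; the slanted edges on the left are genes listed at or near 0 in all fish of 1 group.

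Of the 18 genes that passed the adjustment, 11 were listed at 0 in all 3 fish of a group, which in FPKM can also be a failed estimate. Only 5 of the 18 have a name in the sources used here. Among the other 13 the rise was largest in CI01000059_03157245_03158887, listed at 19.8, 16.9 and 18.4 FPKM in the 6‰ fish and at 0 in all 3 of the 3‰ fish. Its values in the control fish were 0, 27.3 and 0 FPKM, so 0 and a high value occurred among untreated fish as well, and it was listed at 0 in all 6 symptomatic fish. CI01024613_00002676_00002994 had 56.7, 45.9 and 29.9 FPKM in the 6‰ fish, against 2.35, 3.08 and 3.11 in the 3‰ fish (difference 3.51 ± 0.24, adjusted p = 0.013). Its control values were 1.30, 32.5 and 1.48 FPKM, so a high value occurred in an untreated fish here too. In symptomatic fish its direction was reversed, with 17.6, 4.08 and 0.353 FPKM at 6‰, against 19.8, 31.6 and 39.8 at 3‰. The largest falls among these 13 were those of CI01000047_05315990_05318854, listed at 0 in the 6‰ fish and at 9.45, 16.2 and 14.5 FPKM in the 3‰ fish, and of CI01000300_11644496_11658653, with 0.296, 0.727 and 0 FPKM in the 6‰ fish, against 6.93, 5.46 and 5.79 in the 3‰ fish (difference -2.43 ± 0.22, adjusted p = 0.038). The first was listed at 0, 14.9 and 0 FPKM in the control fish and at 0, 15.2 and 12.9 in the 3‰ symptomatic fish. The second had 1.77, 1.72 and 4.30 FPKM in the control fish. An identifier gives the scaffold, start and end of the gene on a genome whose build no source names.

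Names were available for 265 genes, those the study pairs with an identifier in its text or, for most, in the row labels of its expression plots, and 259 of these were tested. They are not a neutral sample. Of those tested, 85 had been shown for the uninfected fish, that is on the libraries used here. All 85 had a positive difference, 51 of them past the threshold, beside 3.39% of all tested genes, so their direction is not independent evidence. The other 174 tested genes were shown for fish later infected with Flavobacterium columnare, which are other libraries and are not analysed here. Of these, 51 were lower at 6‰ and 2 were higher, beside 2.90% and 3.39% of all tested genes. A negative difference was found in 136 of the 174, and in 12640 of all 24511 tested genes. The median of the 174 was -0.34, against -0.01 over all tested genes. The study describes most of the sets it plots for infected fish as impaired by salinity treatment. A fall against untreated infected fish, in those other libraries, was thus part of their choice. The study does not describe these sets by a difference between the salinities. How the choice bears on the direction of these genes, here and by family below, was not tested, and they remain a selected set. Many named genes belong to families with near-identical copies (claudins, NLRs, GVINP1, immunoglobulins), and how reads were divided between copies is not stated, so a value of a single copy is uncertain.

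**Figure D2:**
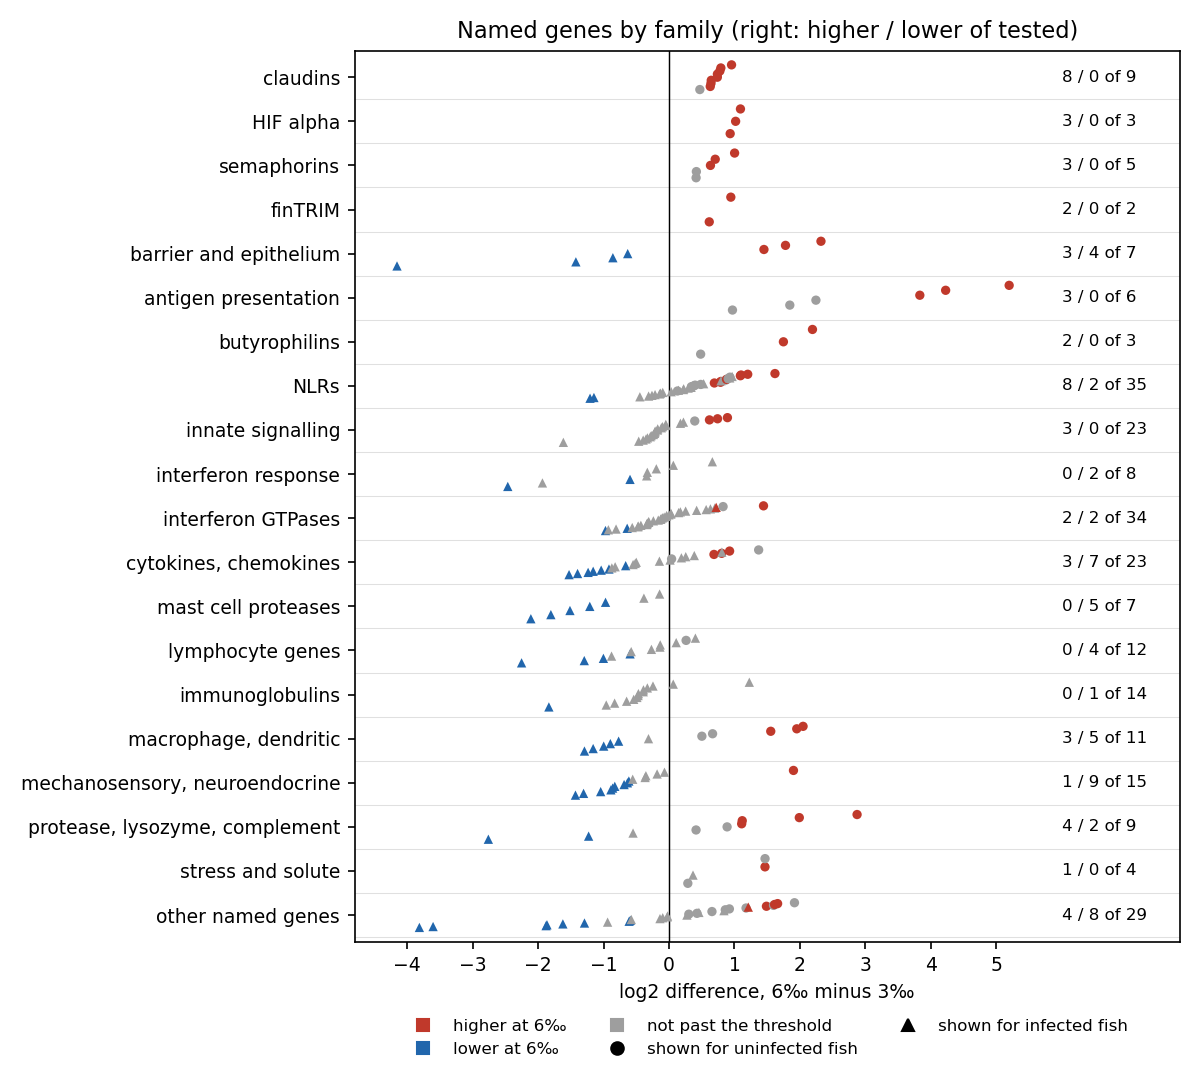
Log2 difference (6‰ minus 3‰, asymptomatic fish) of the 259 tested named genes, 1 point per gene, by family. Red and blue points passed the threshold as higher and lower at 6‰; circles are genes shown for these uninfected fish and triangles genes shown for infected fish. Claudins and HIF alpha genes lie to the right of 0, mast cell proteases and most mechanosensory and neuroendocrine genes to the left; the numbers on the right are genes higher, lower and tested.

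Tight junction genes were higher at 6‰. Of 9 claudins, 8 rose, beside 3.39% of all tested genes, and the last, a claudin-8, had a difference of 0.47 ± 0.24. The median of the 9 was 0.74. The most abundant, a claudin-4 (CI01000091_00370016_00370645), had 602, 633 and 445 FPKM in the 6‰ fish, against 343, 404 and 262 in the 3‰ fish (difference 0.74 ± 0.21, adjusted p = 0.24). Its neighbour on the scaffold, another claudin-4 (CI01000091_00368135_00368878), had 145, 139 and 109 FPKM in the 6‰ fish, against 75.01, 99.6 and 76.5 in the 3‰ fish. A claudin-23 (CI01000304_04227914_04228723) had 197, 165 and 117 FPKM in the 6‰ fish, against 80.8, 109.9 and 90.9 in the 3‰ fish. In these 3 genes every 6‰ fish was above every 3‰ fish, with the lowest 6‰ value in fish 3; 7 of the 9 claudins were separated in this way, beside 10.8% of all tested genes. All 9 were among the genes shown for these same fish, so neither count is independent evidence. Claudin-10-like (CI01000024_05009338_05014066), of the group that forms paracellular ion pores in mammals, was low, with 2.22, 2.17 and 1.97 FPKM in the 6‰ fish and 0.261, 0.547 and 1.13 in the 3‰ fish (difference 0.95 ± 0.20), and it alone of the 8 kept its call whichever fish was left out. The 8 calls were 3 without 6‰ fish 1 or without 3‰ fish 1, 5 without 6‰ fish 2 and 4 without 3‰ fish 3. Summed over the 9 genes, claudin FPKM was 1358, 1326 and 944 in the 6‰ fish, against 702, 884 and 639.7 in the 3‰ fish. The control fish had 678, 807 and 765 FPKM.

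Of 7 tested genes grouped here as barrier and epithelium 3 rose and 4 fell, beside 3.39% and 2.90% of all tested genes. Their median was -0.63. The 3 that rose are given here and the 4 that fell further below. Of those that rose, 2 are named for proteins of the cornified envelope of mammals and had larger differences than the claudins. Cornifelin homolog B-like (CI01000163_00353630_00354334), whose human relative is a protein of the cornified envelope, had 258, 255 and 111 FPKM in the 6‰ fish, against 41.5, 81.9 and 15.8 in the 3‰ fish (difference 2.32 ± 0.63, adjusted p = 0.23). Protein-glutamine gamma-glutamyltransferase K (CI01000021_05928007_05937412), the transglutaminase that cross-links envelope proteins in mammalian skin, had 39.2, 26.4 and 16.1 FPKM in the 6‰ fish and 6.97, 12.1 and 7.85 in the 3‰ fish (difference 1.45 ± 0.35). Neither gene overlapped between the groups, and both kept their call whichever fish was left out. Their means in the control fish were lower than in either salinity group, at 9.996 ± 2.50 and 5.42 ± 1.92 FPKM (SD, n = 3). Fibrocystin-L (CI01000321_02880629_02932511), a large membrane protein, rose by 1.78 ± 0.64, a call that ended without 6‰ fish 1 (1.51), without 6‰ fish 2 (1.59) and without 3‰ fish 3 (1.15). All 3 genes were shown for these same fish, so their direction is not independent evidence.

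Both HIF-2 alpha loci and HIF-4 alpha rose, beside 3.39% of all tested genes. HIF alpha subunits are transcription factors that accumulate when oxygen is low and switch on genes of oxygen supply and glycolysis. HIF-2 alpha (CI01000012_01412584_01433078) had 56.8, 41.9 and 42.5 FPKM in the 6‰ fish, against 16.7, 27.1 and 21.4 in the 3‰ fish (difference 1.09 ± 0.21, adjusted p = 0.17). The next identifier on the scaffold has the same name (CI01000012_01435706_01436086) and had 57.5, 43.7 and 41.2 FPKM in the 6‰ fish and 16.9, 30.6 and 22.5 in the 3‰ fish. The pair may be parts of 1 gene, and they are not counted as independent. HIF-4 alpha (CI01000072_02058184_02067046), a fish HIF paralogue, had 137.1, 76.005 and 57.96 FPKM in the 6‰ fish, against 41.8, 52.95 and 37.9 in the 3‰ fish (difference 0.93 ± 0.33); its call ended without 3‰ fish 1 (0.90) or 3‰ fish 3 (0.83). All 3 were separated between the groups, beside 10.8% of all tested genes, and all 3 were shown for these same fish.

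Of 4 solute and stress genes 1 passed, as higher, beside 3.39% of all tested genes. Urea transporter 2-like (CI01000080_00840896_00847444), a membrane channel for urea, rose, with 50.5, 24.7 and 16.2 FPKM in the 6‰ fish, against 12.9, 10.9 and 5.54 in the 3‰ fish (difference 1.47 ± 0.47, adjusted p = 0.27). The 6‰ and 3‰ fish did not overlap, and the control fish lay below both groups, with 1.10, 1.27 and 2.06 FPKM, but without 3‰ fish 3 the call was lost (1.14). The urea transporter was shown for these same fish, so its direction is not independent evidence. FKBP5, a co-chaperone of the glucocorticoid receptor and a target of cortisol, had 432, 122 and 87.3 FPKM in the 6‰ fish and 67.8, 122 and 25.4 in the 3‰ fish. DDIT4, a stress-induced inhibitor of growth signalling, had 62.98, 92.6 and 50.1 FPKM in the 6‰ fish and 71.8, 101 and 21.7 in the 3‰ fish. In both genes the groups overlapped and the threshold was not met (differences 1.47 ± 0.77 and 0.29 ± 0.57). The chaperone HSP90AA1 had 1.43, 3.001 and 2.55 FPKM in the 6‰ fish and 1.83, 2.26 and 0.743 in the 3‰ fish. The only gene of the sodium pump with a name here, ATP1B2, a beta subunit, was low in both groups, with 1.56, 0.277 and 0 FPKM in the 6‰ fish and 0.629, 0.874 and 0.563 in the 3‰ fish.

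Of 5 semaphorins, secreted or membrane guidance proteins that also act on immune cells, 3 rose, beside 3.39% of all tested genes. They were semaphorin-3E (0.63 ± 0.15), semaphorin-4C isoform X1 (0.71 ± 0.19) and semaphorin-4B (1.002 ± 0.37). Semaphorin-4C had 18.1, 11.5 and 11.7 FPKM in the 6‰ fish, against 8.11, 8.55 and 7.06 in the 3‰ fish. All 5 were separated between the groups, beside 10.8% of all tested genes, but all 5 were shown for these same fish and none of the 3 calls was left without 6‰ fish 1. The finTRIM genes, a fish-specific family of ubiquitin ligases with members that respond to viruses, were both higher, beside 3.39% of all tested genes. FinTRIM 83 (CI01000339_06060658_06063401) had 117, 129 and 88.3 FPKM in the 6‰ fish, against 53.7, 73.3 and 46.3 in the 3‰ fish (difference 0.94 ± 0.22), without overlap and with its call kept in every set of 5 fish. FinTRIM 99 (0.61 ± 0.16) lost its call without 6‰ fish 1 or 3‰ fish 1. Both finTRIM genes were shown for these same fish.

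The largest positive differences among named genes lay in 3 genes of antigen processing that follow each other on scaffold CI01000319. TAP2, a subunit of the pump that carries peptides to MHC class I, had 33.4, 27.3 and 34.1 FPKM in the 6‰ fish, against 1.97, 2.999 and 0 in the 3‰ fish (difference 3.83 ± 0.50, adjusted p = 0.11). PSMB9, a catalytic subunit of the immunoproteasome, had 17.8, 15.8 and 19.7 FPKM in the 6‰ fish, and proteasome 20S subunit beta 12 had 32.1, 34.1 and 41.2; both were listed at 0 in all 3 of the 3‰ fish (adjusted p = 1.32e-04 and 1.01e-04). PSMB9 was also listed at 0 in all 3 control fish and in 1 of 3 symptomatic fish at 6‰ (15.8, 32.5 and 0 FPKM), while all 3 symptomatic fish at 3‰ were above 0 (11.9, 19.8 and 12.01 FPKM). Over all 15 fish, values of 0 for PSMB9 thus occurred at each salinity. Within 100 kb on either side of these 3 genes, which set the window, 13 other genes were tested, none of them named. Of these, 1 was higher at 6‰ and 1 was lower, beside 3.39% and 2.90% of all tested genes. The 3 MHC class I-related genes of the list did not pass the threshold. One of them, CI01000145_01068409_01070674, had 27.8, 22.4 and 23.9 FPKM in the 6‰ fish and 19.02, 6.90 and 0 in the 3‰ fish, without overlap but with a wide spread at 3‰ (difference 2.24 ± 1.03). All 6 named genes of this family were shown for these same fish, so their direction is not independent evidence.

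Butyrophilins, relatives of the B7 molecules that modulate T cells, showed 2 calls among 3 genes, beside 3.39% of all tested genes called higher. All 3 were shown for these same fish, so their direction is not independent evidence. Butyrophilin subfamily 1 member A1-like (CI01000269_00136855_00141110) had 8.88, 2.60 and 7.33 FPKM in the 6‰ fish, against 0.998, 0.559 and 0 in the 3‰ fish (difference 2.19 ± 0.44, adjusted p = 0.19), without overlap and with its call kept in every set of 5 fish. Butyrophilin-like protein 3 rose by 1.75 ± 0.63, a call lost without 6‰ fish 1 or 6‰ fish 3. In symptomatic fish CI01000269_00136855_00141110 went the other way, with 0.767, 0.680 and 0.531 FPKM at 6‰, against 1.67, 2.39 and 4.39 at 3‰ (difference -1.14 ± 0.28, past the threshold as lower); the interaction of salinity and symptoms was 3.33, with an adjusted p of 0.35. The other gene named butyrophilin subfamily 1 member A1-like, CI01000333_00668042_00686951, had 10.5, 2.01 and 9.15 FPKM in the 6‰ fish and 3.29, 12.6 and 1.21 in the 3‰ fish, with the highest value in a 3‰ fish.

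NLRs, cytosolic sensors with a NACHT domain that in mammals start inflammasomes or damp signalling, moved in both directions. Of 35 tested, 8 rose and 2 fell, beside 3.39% and 2.90% of all tested genes. All 8 that rose came from the 16 shown for these fish, and of the other 19 none rose. NLRP12 (CI01000140_02179741_02185260) had 4.77, 2.98 and 2.69 FPKM in the 6‰ fish, against 1.31, 1.11 and 0.796 in the 3‰ fish (difference 1.09 ± 0.20), and NLRP3-like isoform X1 (CI01000314_01676239_01691014) had 13.5, 12.6 and 10.3 FPKM in the 6‰ fish, against 6.45, 8.49 and 5.09 in the 3‰ fish (difference 0.79 ± 0.19). These 2 were separated between the groups and kept their call whichever fish was left out; of the 8 calls these were the only 2 that remained without 6‰ fish 1 or without 3‰ fish 1, and 3 of the 8 remained without 3‰ fish 3. NLRC3 CI01000140_02095891_02110510, on the same scaffold as NLRP12, went the other way, with 4.20, 2.36 and 4.51 FPKM in the 6‰ fish, against 8.27, 15.7 and 6.65 in the 3‰ fish (difference -1.21 ± 0.34). NLRP3-like CI01000311_00306691_00328168 fell to 0.0581, 0 and 0.148 FPKM in the 6‰ fish, against 1.25, 2.52 and 0.662 in the 3‰ fish (difference -1.15 ± 0.27). Both falls were free of overlap. Genes that act with these sensors were not called: of 19 caspase, PYCARD, TRAF and other signalling genes shown for infected fish, none passed the threshold and 17 had a negative difference, with a median of -0.22. PYCARD (CI01000027_03783310_03784541), the adaptor of inflammasomes, had 80.2, 95.7 and 106 FPKM in the 6‰ fish and 108, 113 and 122 in the 3‰ fish. TLR25, a fish Toll-like receptor, rose by 0.89 ± 0.31, LITAF by 0.74 ± 0.30 and RNF34-like by 0.62 ± 0.23, but none of these 3 calls was left without 6‰ fish 1 or without 3‰ fish 1. These 3 genes were shown for these same fish.

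Granule proteases of mast cells and cytotoxic lymphocytes were lower at 6‰. Of 7 genes grouped here as mast cell proteases 5 fell, beside 2.90% of all tested genes, and all 7 had a negative difference, with a median of -1.21. The group includes complement factor D-like, which is not named as a mast cell protease. Mast cell protease 8 (CI01000030_02678940_02684491) had 13.998, 14.6 and 19.4 FPKM in the 6‰ fish, against 59.7, 70.8 and 86.7 in the 3‰ fish (difference -2.11 ± 0.19), and was the only 1 of the 7 to pass the adjustment (adjusted p = 0.038). Its mean was 4.53 times as high in the 3‰ fish. Duodenase-1-like (CI01000030_03066708_03068158), a serine protease of the same group, had 2.43, 2.68 and 2.42 FPKM in the 6‰ fish, against 9.64, 15.2 and 9.67 in the 3‰ fish (difference -1.80 ± 0.19, adjusted p = 0.062). Mast cell protease 4 (CI01000177_00007970_00010157) had 7.07, 12.1 and 14.7 FPKM in the 6‰ fish and 36.9, 34.2 and 27.9 in the 3‰ fish (difference -1.51 ± 0.26). All 5 that fell were separated between the groups, beside 10.1% of all tested genes, and each of the 5 calls held in every set of 5 fish. Those that did not pass were a second mast cell protease 4 (CI01000575_00020922_00022350), with 2.40, 7.58 and 13.99 FPKM in the 6‰ fish and 24.9, 21.8 and 0 in the 3‰ fish, where 1 fish of the 3‰ group was listed at 0, and complement factor D-like (-0.38 ± 0.37).

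Of 12 lymphocyte genes 4 fell, namely 3 granzymes and a CD48, beside 2.90% of all tested genes. Granzymes are the serine proteases that killer cells inject into their targets. Granzyme B(G,H) CI01000030_03106589_03108355 had 15.2, 14.5 and 20.5 FPKM in the 6‰ fish, against 33.2, 50.2 and 44.5 in the 3‰ fish (difference -1.29 ± 0.20). Granzyme-like protein 1 (CI01001325_00000309_00000862) had 13.2, 8.55 and 31.5 FPKM in the 6‰ fish, against 84.1, 133 and 40.7 in the 3‰ fish (difference -2.25 ± 0.58). All 3 granzymes were separated and held in each set of 5 fish, whereas the CD48 call (-0.59 ± 0.21) was lost in 4 of the 6 sets and held only without 6‰ fish 3 or 3‰ fish 1. Another CD48 (CI01000030_08845484_08861801), shown for these same fish, went the other way without passing (0.26 ± 0.18). In symptomatic fish it passed as higher at 6‰ (0.78 ± 0.27). Genes that mark T cells themselves were not called. CD4-like had 92.1, 82.04 and 117 FPKM in the 6‰ fish and 53.8, 90.4 and 78.01 in the 3‰ fish. CD8 alpha had 21.1, 16.7 and 26.8 FPKM in the 6‰ fish and 11.4, 22.5 and 28.7 in the 3‰ fish. The groups overlapped in both genes and in the Fas ligand gene FASLG (-0.13 ± 0.33). Perforin-1, the pore former that works with granzymes, had 2.45, 1.62 and 4.91 FPKM in the 6‰ fish and 4.27, 11.6 and 3.98 in the 3‰ fish, a difference of -0.88 ± 0.45 that missed the threshold.

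Of the genes that fell, 4 mast cell proteases and both granzyme B(G,H) genes lie on 1 scaffold, CI01000030. The stretch of 501 kb from mast cell protease 8 to mast cell protease 1A-like holds 24 genes in the files, of which 20 were tested. Of these, 6 were lower at 6‰, beside 2.90% of all tested genes, and none was higher. All 6 are named proteases, and of 13 tested genes without a name none was called. The stretch was bounded by called genes, so its share of calls is a description. The next 2 genes after mast cell protease 8 averaged 563 and 715 FPKM in the 6‰ fish and 597.6 and 725 FPKM in the 3‰ fish. An unnamed gene between the granzymes averaged 39.4 FPKM in the 6‰ fish and 112 FPKM in the 3‰ fish but varied too much between fish to pass (difference -0.91).

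**Figure D3:**
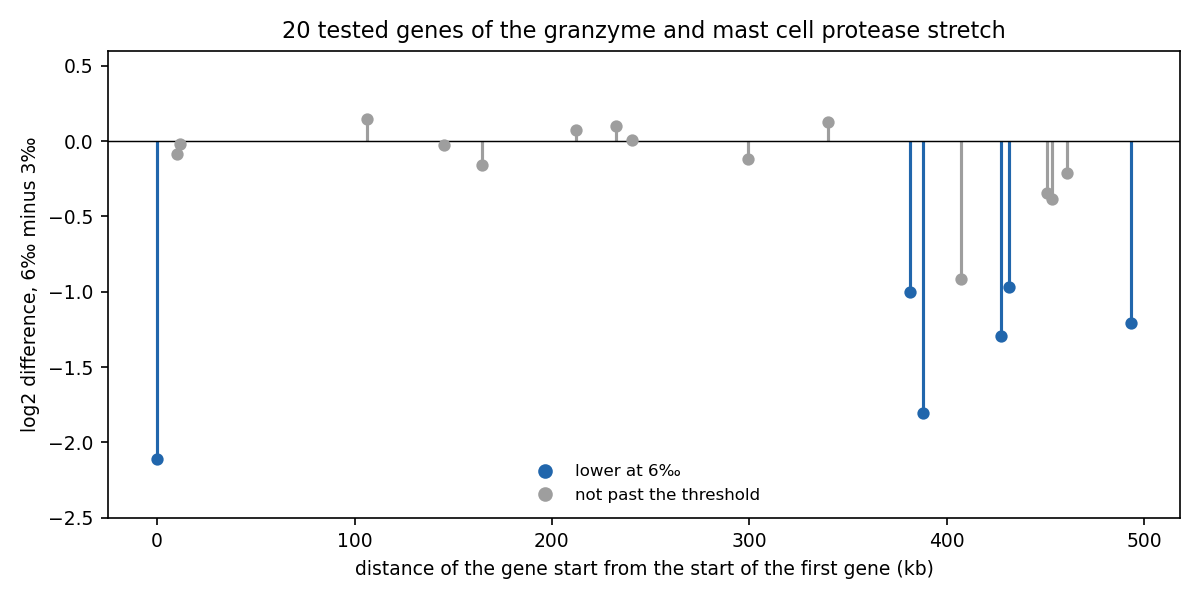
Log2 difference (6‰ minus 3‰, asymptomatic fish) of the 20 tested genes in the 501 kb stretch with the granzyme B(G,H) and mast cell protease genes, by distance of the gene start from the start of mast cell protease 8 in kb. The 6 genes called lower (blue) are mast cell protease 8 at 0 kb and 5 genes between 381 and 493 kb; of the uncalled genes (grey), those up to 340 kb lie near 0, and some between 407 and 461 kb lie below it, the lowest at -0.91.

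Type 2 cytokine genes and their receptor were lower as well. IL4/13A and IL4/13B are the fish counterparts of interleukins 4 and 13, which drive mast cell and antibody responses in mammals. IL4/13A (CI01000040_03226639_03227469) had 12.96, 5.51 and 6.97 FPKM in the 6‰ fish, against 20.7, 21.2 and 34.98 in the 3‰ fish (difference -1.53 ± 0.34, adjusted p = 0.21). IL4/13B (CI01000000_17729584_17730495) had 0.614, 0.989 and 2.24 FPKM in the 6‰ fish, against 4.66, 5.25 and 4.36 in the 3‰ fish (difference -1.40 ± 0.26). IL13RA1 (CI01000160_00676289_00679272), a chain of their receptor, had 1.12, 0.865 and 0.749 FPKM in the 6‰ fish, against 2.97, 2.64 and 3.13 in the 3‰ fish (difference -1.04 ± 0.12, adjusted p = 0.079). CYSLTR1 (CI01000116_00853336_00854385), the receptor for the cysteinyl leukotrienes that mast cells release, had 4.12, 3.62 and 5.26 FPKM in the 6‰ fish, against 7.19, 9.88 and 10.2 in the 3‰ fish (difference -0.92 ± 0.18). None of these 4 genes overlapped between the groups, and all 4 calls held in each set of 5 fish. Of all tested genes 10.1% were lower without overlap.

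In all, 7 of 23 cytokine and chemokine genes fell and 3 rose, beside 2.90% and 3.39% of all tested genes. Chemokine ligand-like CI01000145_00856790_00859022 had 26.02, 27.7 and 41.2 FPKM in the 6‰ fish, against 62.9, 78.01 and 83.5 in the 3‰ fish (difference -1.24 ± 0.21). IL8, the neutrophil attractant, was called in 1 of 3 copies (CI01000300_03901275_03902800, -0.66 ± 0.25); that call held only without 6‰ fish 2. The call of IL21R, an interleukin receptor (-1.16 ± 0.42), held only without 3‰ fish 1 or 3‰ fish 2. The 3 that rose are chemokine receptors: XCR1b, a receptor that marks cross-presenting dendritic cells in mammals (0.93 ± 0.24), CXCR7a, a scavenger of CXCL12 (0.69 ± 0.16), and CXCR3, a receptor of activated T cells (0.80 ± 0.30). XCR1b had 1.88, 2.72 and 4.52 FPKM in the 6‰ fish, against 0.951, 1.28 and 0.937 in the 3‰ fish, and held in each set of 5 fish. The CXCR7a call was lost without 3‰ fish 3 and the CXCR3 call without 6‰ fish 2 or 3 or 3‰ fish 2 or 3. These receptors were among the genes shown for these fish.

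Macrophage and dendritic cell genes moved both ways. Over all tested genes 2.90% were called lower and 3.39% higher. Of the 6 shown for infected fish 5 fell, among them CD163L1 (CI01000010_08159110_08177308), a scavenger receptor, with 7.25, 4.31 and 5.46 FPKM in the 6‰ fish, against 12.8, 14.2 and 14.02 in the 3‰ fish (difference -1.16 ± 0.18). CD163L1-like (-0.998 ± 0.22), MS4A4A, a membrane protein of macrophages (-1.29 ± 0.29), CD207-like, named for the langerin of Langerhans cells (-0.90 ± 0.24) and macrophage-capping protein-like (-0.77 ± 0.18) fell too. All 5 were separated, beside 10.1% of all tested genes, and held in each set of 5 fish. Of the 5 shown for these fish 3 rose, all of them mannose receptor genes. Macrophage mannose receptor 1 (CI01106305_00000064_00000301) had 37.3, 18.5 and 8.04 FPKM in the 6‰ fish, against 4.39, 6.44 and 1.38 in the 3‰ fish (difference 2.05 ± 0.63). C-type mannose receptor 2 (1.55 ± 0.41) and C-type mannose receptor 2-like (1.95 ± 0.50) were the others, and all 3 calls held in each set of 5 fish.

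Mx3 and IRF11 fell among 8 interferon response genes, beside 2.90% of all tested genes. Mx3 (CI01000299_04136702_04142005), an antiviral GTPase induced by interferon, had 0, 0.555 and 0.231 FPKM in the 6‰ fish, against 5.31, 6.14 and 6.11 in the 3‰ fish (difference -2.46 ± 0.18, adjusted p = 0.015). IRF11 (CI01000005_07355833_07360372), a fish interferon regulatory factor, had 22.6, 21.5 and 18.9 FPKM in the 6‰ fish, against 32.2, 33.4 and 30.8 in the 3‰ fish (difference -0.60 ± 0.11); its call ended without 6‰ fish 3 (-0.52) or 3‰ fish 2 (-0.57). None of the other 6 passed. A second Mx gene, Mx3-like (CI01000055_06191356_06221464), had 44.6, 65.1 and 84.97 FPKM in the 6‰ fish and 86.1, 43.1 and 57.8 in the 3‰ fish, and the 3 IFI44L genes had differences between -1.93 and 0.66, with overlap in each. Of 34 interferon-induced and immunity-associated GTPases (GVINP1, GBP1, GIMAP) 2 rose and 2 fell, shares close to the 3.39% and 2.90% of all tested genes. SLIP-GC rose by 1.44 ± 0.38, and its call held in each set of 5 fish, but it was shown for these same fish. The calls of GVINP1-like (0.72 ± 0.29), GVINP1 (-0.97 ± 0.38) and GIMAP4-like (-0.64 ± 0.12) each ended in 2 to 4 of the 6 sets, all 3 without 6‰ fish 2 and without 3‰ fish 2.

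Genes of mechanosensory and neuroendocrine cells were lower at 6‰, most of them at low levels in both groups. Of 15 tested 9 fell, beside 2.90% of all tested genes, 1 rose, and 14 had a negative difference; all 14 were shown for infected fish. Atonal-like protein (CI01000347_01263386_01264264), of the family of transcription factors that specify hair cells and Merkel cells in mammals, had 0.429, 0.952 and 0.483 FPKM in the 6‰ fish, against 2.72, 3.62 and 3.70 in the 3‰ fish (difference -1.43 ± 0.17, adjusted p = 0.081). PIEZO2, the stretch-activated channel of touch receptors, was lower under 2 of 3 identifiers named PIEZO2 or PIEZO2-like; CI01090692_00000356_00001387 had 1.08, 0.395 and 0.654 FPKM in the 6‰ fish, against 1.70, 2.29 and 2.25 in the 3‰ fish (difference -0.86 ± 0.18). The serotonin receptor HTR1F-like (CI01000080_03309401_03310494) had 0.569, 0.455 and 1.32 FPKM in the 6‰ fish, against 2.71, 3.80 and 3.49 in the 3‰ fish (difference -1.30 ± 0.21). Alpha-2B adrenergic receptor-like (-0.89 ± 0.14), NPY receptor type 1 (-0.61 ± 0.11), neural cell adhesion molecule L1 (-1.04 ± 0.13), the calcium sensor secretagogin (-0.69 ± 0.14) and DOC2B, a protein of vesicle release (-0.63 ± 0.19), fell as well. All 9 were separated between the groups, beside 10.1% of all tested genes. The calls of NPY receptor type 1 (without 3‰ fish 1, -0.55), secretagogin (without 3‰ fish 2, -0.56) and DOC2B (without 6‰ fish 1, -0.56, or 3‰ fish 2, -0.46) ended when 1 fish was left out. The gene that rose, cocaine- and amphetamine-regulated transcript, encodes a neuropeptide and had 7.51, 2.34 and 4.37 FPKM in the 6‰ fish, against 0.791, 0.638 and 0 in the 3‰ fish (difference 1.90 ± 0.39); it was shown for these fish.

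Some epithelial genes went against the claudins. Cadherin-1, the adhesion molecule of epithelial junctions, fell under both of its identifiers, with 0.742, 0.490 and 0.524 FPKM in the 6‰ fish, against 2.27, 3.92 and 3.73 in the 3‰ fish, for CI01000013_11402841_11414169 (difference -1.42 ± 0.18). These FPKM are low for an epithelial tissue, and whether either identifier is the main epithelial cadherin cannot be told from the files. Epidermal differentiation-specific protein (CI01035375_00000578_00001096) had 11.6, 1.24 and 3.38 FPKM in the 6‰ fish, against 47.5, 86.8 and 163 in the 3‰ fish (difference -4.15 ± 0.72). Both were separated and held in each set of 5 fish. The second cadherin-1 (-0.63 ± 0.25) and KRT8-like, a keratin (-0.86 ± 0.33), fell as well, but the first call was left only without 3‰ fish 1 or 2 and the second only without 3‰ fish 3.

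The remaining named genes included some of the largest falls. GLIPR2-like (CI01000275_00123293_00123962) had 9.16, 8.01 and 8.10 FPKM in the 6‰ fish, against 217, 145 and 45.9 in the 3‰ fish (difference -3.60 ± 0.54, adjusted p = 0.13). Low choriolytic enzyme-like (CI01000026_10750149_10752108), an astacin metalloprotease named for the hatching enzyme of fish eggs, had 18.9, 19.8 and 27.2 FPKM in the 6‰ fish, against 189, 103 and 183 in the 3‰ fish (difference -2.76 ± 0.28, adjusted p = 0.057). Calpain-2 catalytic subunit-like (CI01000030_06499375_06510887), a calcium-dependent protease, had 14.9, 15.1 and 12.4 FPKM in the 6‰ fish, against 73.1, 75.6 and 28.8 in the 3‰ fish (difference -1.88 ± 0.38). None overlapped between the groups, and all 3 held in each set of 5 fish. Kelch-like protein 24 (-1.29 ± 0.24), phospholipase A2 gamma-like (-1.62 ± 0.26) and C3a, a complement gene (-1.23 ± 0.18), fell in the same way, without overlap and in each set of 5 fish. Meiotic nuclear division 1-like (CI01000300_10094312_10098589) was listed at 0 in all 3 of the 6‰ fish and at 13.99, 11.7 and 13.5 FPKM in the 3‰ fish (adjusted p = 1.32e-04). In the control fish it was listed at 7.13, 11.8 and 0 FPKM. In the other direction, C-type lysozyme (CI01000018_06021105_06025859), an enzyme that breaks bacterial cell walls, had 13.8, 23.2 and 14.8 FPKM in the 6‰ fish, against 8.53, 6.34 and 7.05 in the 3‰ fish (difference 1.11 ± 0.22). The control fish had 2.55, 2.58 and 2.90 FPKM. HRAS-like suppressor 3 (CI01000000_05715062_05715540), a phospholipase, had 16.1, 12.8 and 10.8 FPKM in the 6‰ fish, against 3.80, 4.32 and 3.92 in the 3‰ fish (difference 1.49 ± 0.16, adjusted p = 0.068). Both were separated and held in each set of 5 fish, but both were shown for these same fish. Serine protease 27 was called under both of its identifiers (1.99 ± 0.61 and 2.87 ± 1.06), and matrix metalloproteinase-19-like, an enzyme of matrix breakdown, rose by 1.12 ± 0.45, but none of these 3 calls was left without 6‰ fish 1 or without 3‰ fish 1. GPRC6A CI01073102_00000439_00001194, an amino acid-sensing receptor, rose by 1.21 ± 0.45 and lost its call without 3‰ fish 1 or 3‰ fish 3; it and GVINP1-like were the only genes shown for infected fish that rose. Golgin subfamily A member 6-like (-1.86 ± 0.50) fell and kept its call in each set of 5 fish. GDNF family receptor alpha-like (-0.61 ± 0.11) and gastrula zinc finger protein XlCGF57.1 (-0.59 ± 0.21) fell as well, with calls lost in 3 and 4 of the 6 sets, both without 6‰ fish 3, 3‰ fish 2 or 3‰ fish 3. Lipocalin-like isoform X1 (1.66 ± 0.24) and cell wall protein DAN4-like (1.61 ± 0.40) rose and kept their calls in every set, but were shown for these same fish.

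**Figure D4:**
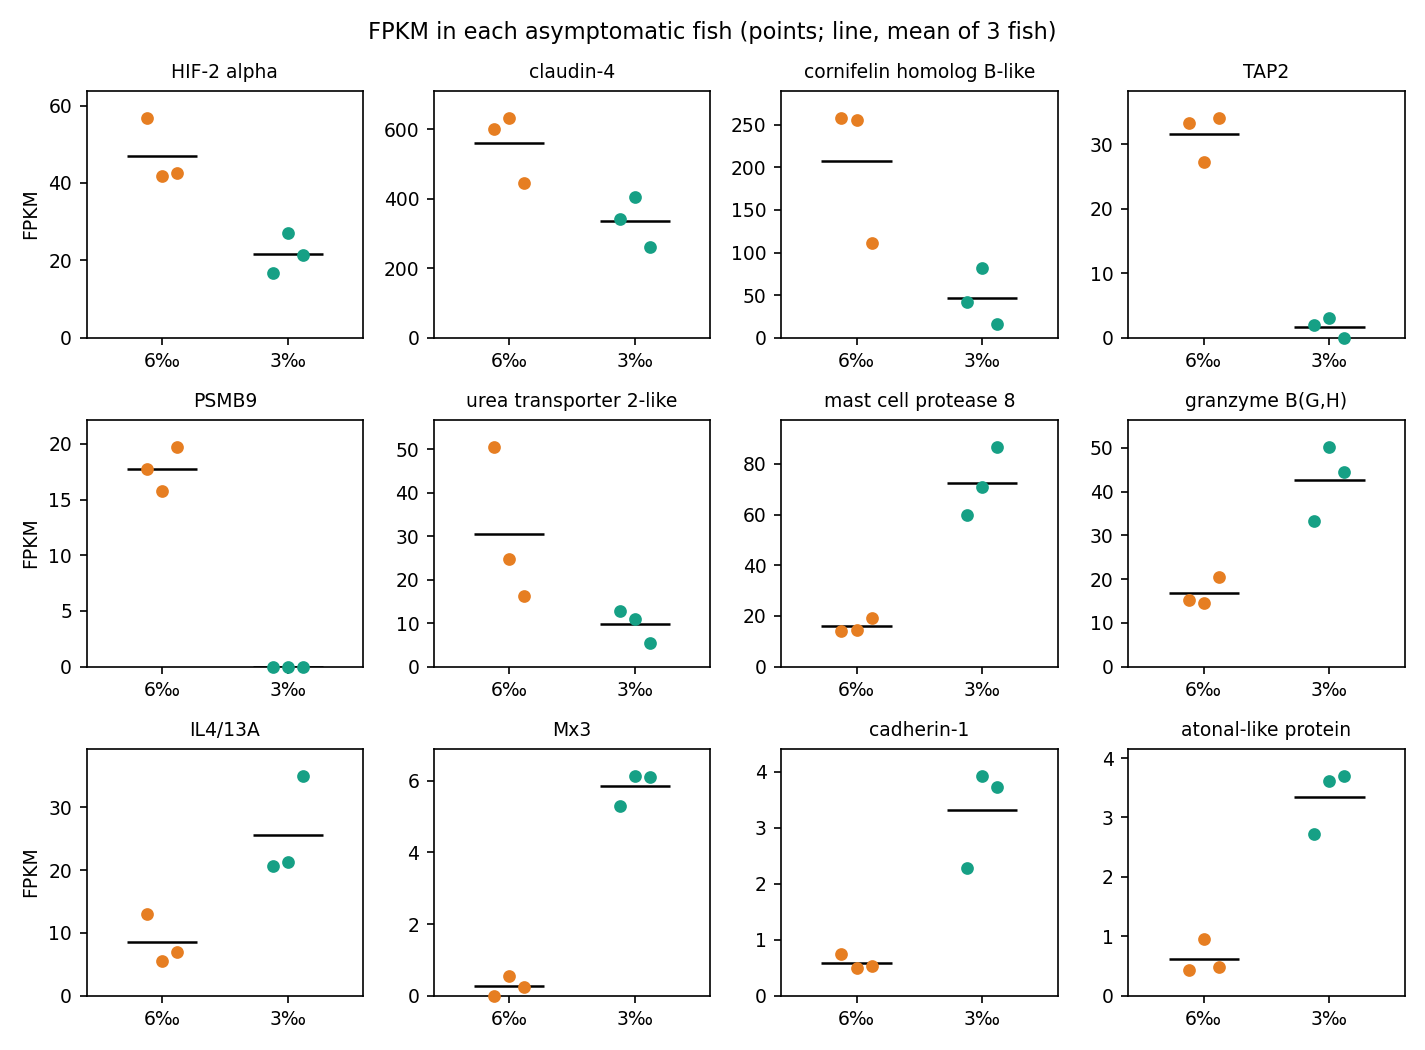
FPKM of 12 named genes in each asymptomatic fish, 6‰ on the left and 3‰ on the right of each panel, with 1 point per fish and a line at the mean of 3 fish. In all 12 panels the fish of the 2 groups do not overlap; the claudin-4 shown is the most abundant copy, and PSMB9 is listed at 0 in all 3‰ fish.

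Immunoglobulin genes, the products of B cells and plasma cells, did not separate the salinities. Of 14 genes 1 passed, as lower, beside 2.90% of all tested genes. It was IGHV3-43 (-1.83 ± 0.66), whose groups overlapped and whose call held only without 6‰ fish 3 or 3‰ fish 2. IgM heavy chain (CI01119064_00000599_00000907) had 78.6, 231 and 156 FPKM in the 6‰ fish, against 397, 131 and 144 in the 3‰ fish (difference -0.47 ± 0.55). The groups overlapped, as they did in all 14 genes. The 14 genes summed to 202, 648 and 379.8 FPKM in the 6‰ fish and to 973, 372 and 378 in the 3‰ fish, and 3‰ fish 1 was the highest of the 6. The 7 genes grouped as mast cell proteases, complement factor D-like included, by contrast summed to 34.9, 47.3 and 64.9 FPKM in the 6‰ fish. In the 3‰ fish they summed to 154, 168 and 139.7 FPKM, without overlap. The 17 mechanosensory and neuroendocrine genes summed to 28.3, 19.9 and 26.3 FPKM in the 6‰ fish, against 36.8, 46.3 and 38.2 in the 3‰ fish, also without overlap. The sums of 12 lymphocyte genes overlapped, with 255, 235 and 344 FPKM in the 6‰ fish and 337, 469 and 335 in the 3‰ fish. So did those of 11 macrophage and dendritic cell genes, with 84.1, 49.9 and 41.3 FPKM in the 6‰ fish and 50.3, 63.7 and 44.3 in the 3‰ fish. The sums without overlap contain genes called lower above. The part of cell composition in any of these differences was not tested.

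The control fish, which the contrast did not use, place each difference. Among the 832 genes higher at 6‰, the control mean lay between the 6‰ and 3‰ means for 50.2%, at or below the 3‰ mean for 46.2% and at or above the 6‰ mean for 3.61%. Over all tested genes with a positive difference these shares were 22.4%, 54.1% and 23.5%. Among the 710 genes lower at 6‰ the control mean was between the 2 for 58.5%, at or above the 3‰ mean for 24.8% and at or below the 6‰ mean for 16.8%. Over all genes with a negative difference the shares were 26.1%, 29.8% and 44.1%. Of the 51 lower genes shown for infected fish, 29 had a control mean at or above that of the 3‰ fish, 22 had it in between, and none had it at or below that of the 6‰ fish; 46 were closer to the 3‰ fish. Cadherin-1 CI01000013_11402841_11414169 had 4.60, 9.63 and 4.49 FPKM in the control fish, IL13RA1 had 4.04, 5.82 and 5.92 and Mx3 had 8.27, 38.97 and 9.94, all above the 6‰ fish. The called genes were picked for the distance between the 6‰ and 3‰ means, which by itself leaves more room for a control mean between them, so these shares are a description. The 51 lower genes shown for infected fish came mostly from sets that the study describes as impaired by salinity treatment against control fish. That choice favours a control mean above the treated fish, so their counts are a description too.

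The same contrast in symptomatic fish draws on 6 other fish. By the same rule 431 genes differed between 6‰ and 3‰ symptomatic fish (1.76% of the 24511), 240 higher and 191 lower at 6‰ (0.979% and 0.779%), with 2 genes left after adjustment. Of the 832 genes higher in asymptomatic fish, 658 had a positive difference in symptomatic fish as well (79.1%), where their median was 0.31, against 0.83 in asymptomatic fish. Of the 710 lower genes 522 had a negative difference (73.5%), with a median of -0.26, against -0.83. Over all tested genes 50.8% had a positive difference in symptomatic fish. Of the 51 lower genes shown for infected fish, 49 were negative in symptomatic fish, with a median of -0.97 there and of -1.16 in asymptomatic fish, and 18 passed the threshold as lower. The 51 genes that rose and were chosen on uninfected fish had a median of 0.30 in symptomatic fish, against 1.09 in asymptomatic fish. Of these, 38 were positive, 1 passed as higher and 1, butyrophilin subfamily 1 member A1-like CI01000269_00136855_00141110, passed as lower (-1.14 ± 0.28). The study's plots for uninfected fish also drew on the symptomatic fish, so the direction of these 51 genes in symptomatic fish is not independent evidence. All these sets were picked for passing the threshold in asymptomatic fish, which by itself favours larger differences there. Their medians in asymptomatic and symptomatic fish thus do not compare the size of the difference.

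Symptomatic fish 1 of 6‰ weighed on these values. In GLIPR2-like the symptomatic fish had 314, 13.2 and 5.46 FPKM at 6‰, against 484, 323 and 628 at 3‰. Granzyme-like protein 1 had 158, 18.6 and 6.98 FPKM at 6‰, against 239.5, 167 and 177 at 3‰, and IL4/13A had 61.6, 5.85 and 5.18 FPKM at 6‰, against 96.3, 38.3 and 82.04 at 3‰. In each of these genes fish 1 of 6‰ was near or within the range of the 3‰ fish, and the other 6‰ fish were below all 3 of them. Without it and the 3‰ fish 1 that it resembled, 49 of the 51 lower genes had a negative difference, their median was -1.39 and 37 passed as lower, with 507 such calls among all genes. Without 6‰ symptomatic fish 1 alone 40 passed, with 777 lower calls among all genes. Without 3‰ symptomatic fish 1 alone 8 did, with 198. With all 6 fish the 18 stood beside 191 lower calls. The count thus depended on which symptomatic fish were kept, and it did not follow the number of lower calls over all genes in every set. With both left out, 653 of the 832 higher genes had a positive difference and 533 of the 710 lower genes a negative one. Immunoglobulin genes showed the reach of single fish: the 14 genes summed to 1308, 1887 and 323 FPKM in the 6‰ symptomatic fish, against 1213, 304 and 276 FPKM in the 3‰ symptomatic fish.

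**Figure D5:**
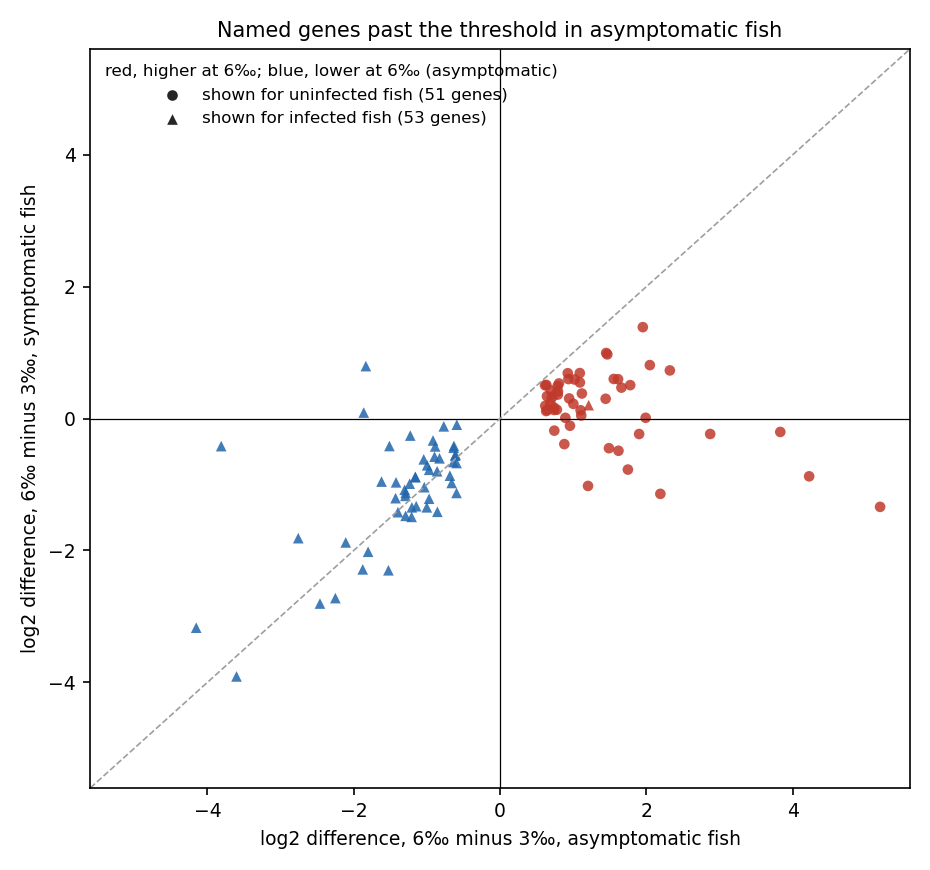
Log2 difference, 6‰ minus 3‰, in symptomatic fish against that in asymptomatic fish, for the 104 named genes called in asymptomatic fish. Blue triangles, lower genes shown for infected fish, lie near the dashed line of equal differences, with medians of -0.97 in symptomatic and -1.16 in asymptomatic fish, apart from a few such as meiotic nuclear division 1-like well above it. Red circles, higher genes shown for uninfected fish, lie below it, with medians of 0.30 and 1.09. The plots from which the red circles were chosen also drew on the symptomatic fish. All 104 genes were picked on their asymptomatic difference, which by itself favours larger values on that axis.

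The difference between both contrasts was tested as the interaction of salinity and symptoms over the 12 salinity-treated fish. A p below 0.05 and a fold of 1.5 were met by 741 genes (3.02%), and 2 genes passed the adjustment. These were the unnamed CI01000059_03157245_03158887 and meiotic nuclear division 1-like, which had 15.7, 12.7 and 7.75 FPKM in the 6‰ and 20.1, 14.4 and 13.7 FPKM in the 3‰ symptomatic fish. Of the 832 higher genes 168 met the unadjusted interaction threshold and of the 710 lower genes 139 did. Both sets were picked by 1 of the 2 contrasts, so these counts are a description. The 3 antigen processing genes had differences of -0.20 ± 1.10 (TAP2), -0.88 ± 1.24 (PSMB9) and -1.34 ± 1.48 (proteasome 20S subunit beta 12) in symptomatic fish, where they did not pass the threshold.

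Neighbours of a called gene shared its call more often than the share of called genes among all such pairs, though most did not share it. Among 18805 pairs of adjacent tested genes on a scaffold, 58 pairs were higher together, 37 were lower together and 21 were called in opposite directions. Of the neighbours of a higher gene 9.97% were also higher, against 3.09% of all genes in such pairs, and of the neighbours of a lower gene 8.52% were also lower, against 2.31%. For neighbours at most 10 kb apart the shares were 12.4% and 10.3%, against 2.77% and 2.05% of all genes in such pairs. The claudin-4, claudin-23 and HIF-2 alpha pairs, the antigen processing genes and the granzyme and protease stretch are examples among the named genes. Adjacent genes include tandem copies whose reads may be shared, and identifiers that may be parts of 1 gene, and these were not told apart.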

How the data were processed

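Gill RNA of 15 uninfected fish was sequenced by the authors as paired-end TruSeq libraries, 1 per fish, and each deposited file holds the FPKM of 40116 genes: 32723 loci of a genome and 7393 genes numbered as new. The aligner, the counting, the genome build and the treatment of reads shared by similar genes are stated in none of the sources used here, although the methods mention a de novo assembly with Trinity. The study gives the clean data of these libraries as a total and a minimum in bases, not as reads per fish. Low FPKM values showed no common step per read, so the depth in reads of each fish is unknown. No interval for counting error is given. In each file 1 line of annotation text was left out.

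Groups were taken from the labels. FPKM was transformed to log2(FPKM + 1) and the 6‰ and 3‰ asymptomatic fish were compared with limma 3.58.1 in R 4.3.3, on the 24511 genes that averaged 0.5 FPKM or more, with 4 residual degrees of freedom. Calls used the study's rule, a fold change of at least 1.5 and an unadjusted p below 0.05, and Benjamini-Hochberg adjusted p-values over all tested genes are printed beside values. Nothing says that the fish came from separate tanks, so p-values measure only the spread between these fish. The fit was tested on simulated data. Named genes are those with a name that passed or that describe their family, and of unnamed genes the 2 largest rises and falls among genes free of overlap whose adjusted p was below 0.05. Names were read from the study's text and the row labels of its expression plots, with families grouped here by name, and no value was taken from them; 0 identifiers matched the reference gene table. The contrast, the named genes and their families were chosen with earlier results of these data known.

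Alternatives were the adjusted p, a fit of all 5 groups, filters, scalings, pseudocounts, a variance prior that follows expression, a replicate block, genes at 0 left out and each fish left out.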

Additional observations from a re-analysis of the deposited data

Results flagged for a closer look

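For 2 genes the 6‰ minus 3‰ difference in asymptomatic fish differed from that in symptomatic fish by the interaction test in limma after Benjamini-Hochberg adjustment. The unnamed CI01000059_03157245_03158887 had an interaction of 4.27 on the log2 scale (adjusted p = 8.66e-07). It was listed at 19.8, 16.9 and 18.4 FPKM in the 6‰ asymptomatic fish and at 0 in the 3‰ asymptomatic fish and in all symptomatic fish. Meiotic nuclear division 1-like (CI01000300_10094312_10098589) had an interaction of -3.39 (adjusted p = 0.0067). It was listed at 0 in all 6‰ asymptomatic fish, at 14.0, 11.7 and 13.5 FPKM in the 3‰ asymptomatic fish, and above 0 in all 6 symptomatic fish. Both genes had a 0 beside a high value among the control fish as well, with 0, 27.3 and 0 FPKM for the unnamed gene and 7.13, 11.8 and 0 FPKM for meiotic nuclear division 1-like.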

How the results depend on the processing

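With the adjusted p in place of the unadjusted one, 18 genes were called, 9 higher and 9 lower, against 1542, 832 and 710. Across the other settings that kept all 6 fish the total ran from 1307 in the fit of all 5 groups to 1913 with a pseudocount of 0.1. Leaving out 1 fish gave 1274 to 2297 calls, with 644 to 1232 higher and 594 to 1065 lower. Of the 104 named calls, 72 to 90 were kept without 1 fish, 59 were kept whichever fish was left out, 5 were kept under the adjusted p, and the other settings kept 90 to 103. Some of the 59 were lost in other settings. In the fit of all 5 groups these were IL4/13A, HRAS-like suppressor 3 and granzyme B(G,H) CI01000030_03060378_03062683. With a pseudocount of 0.01 they were C-type mannose receptor 2, lost with 0.1 too, and C-type mannose receptor 2-like. No named call was reversed in any of these settings. The replicate numbers are shared by the labels of both groups, but same-numbered fish did not deviate together (r = -0.10, 0.07 and -0.01 across genes), so they were not treated as pairs. With the replicate number as a block the rule called 1610 genes, 889 higher and 721 lower, and 10 of the 104 named calls were lost. Leaving out symptomatic fish 1 of both salinities was chosen after seeing the data. It gave 985 genes past the unadjusted interaction threshold in place of 741 and 6 after adjustment in place of 2, with both of the earlier genes among the 6. FPKM without read counts gives no measure of counting error, so low values such as those of Mx3, the mechanosensory genes and genes listed at 0 are the least certain, and a difference that missed the threshold with 3 fish a group is not shown to be absent.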
